A study of Caenorhabditis elegans with 6 samples.

Results

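Gene expression was examined for 10 genes of the molting cycle and the apical extracellular matrix in whole Caenorhabditis elegans fed with and without Lactococcus lactis. The genes were chosen by name, namely mlt-7, mlt-8, mlt-9, mlt-10, mlt-11, noah-1, noah-2, fbn-1, lrp-1 and bli-5, and all 10 were found among the 46904 genes in the count tables and kept among the 14899 genes tested. Wild-type Bristol N2 hermaphrodites, which were 3 days old at transfer, were kept for 5 days on mNGM plates with one of 3 foods. The foods were Escherichia coli OP50 alone, OP50 mixed with LL100933 (OP50 + LL100933), or OP50 mixed with LL12007 (OP50 + LL12007). LL100933 and LL12007 are L. lactis subsp. lactis strains, each mixed with OP50 in equal parts, and every group received OP50. The paper describes LL100933 as not producing the antimicrobial peptide nisin and LL12007 as producing it. The collection number of the first strain differs between the paper, whose name is used here, the sample labels and the series text. About 200 whole worms were pooled per group, and each group had 2 libraries, with nothing in the sources used here to say that these came from separate cultures. The p-values therefore measure the spread between libraries, which may be technical.

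A nematode builds a new cuticle beneath the old one at each larval molt and then sheds the old one. Before the collagen layers are laid down, the epidermis secretes a transient apical matrix, the precuticle, which is rich in zona pellucida domain proteins and lipocalins. Proteases and their inhibitors act when the old cuticle is released, and peroxidases cross-link the new one. These genes are known for cyclic expression in larvae, in step with the molts, whereas the adult no longer molts. Hermaphrodites can carry embryos, and the RNA of whole worms then includes theirs. In such bulk samples, fewer cells of a type and less RNA per cell cannot be told apart, and how offspring were kept apart from the adults before RNA extraction is not stated in the labels or methods.

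The libraries held 14929196 to 21691687 gene counts. Apart from bli-5, each of the 10 genes had at least 666 counts in every library, while bli-5 had 6 to 35. Within the OP50 group the libraries differed by a median of 0.227 in absolute log2 ratio per gene, against 0.209 in OP50 + LL100933 and 0.140 in OP50 + LL12007. OP50 replicate 2 had the highest level of vit-2, a yolk protein gene made in the intestine, at 605228 normalized counts, against 298288 to 396460 in the other 5 libraries. Here and below, normalized counts put all libraries on the scale of their mean effective size. Markers of body wall muscle (unc-54), pharyngeal muscle (myo-2), intestine (ges-1), neurons (rab-3, snb-1), germline (pgl-1, glh-1), larval epidermis (dpy-7) and adult epidermis (col-19) were all detected in every library.

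All 10 genes were expressed in the worms fed OP50 alone, at levels, compared per exon length, that spanned a wide range. The zona pellucida domain genes led, with noah-1 at 66.9 ± 2.42 and noah-2 at 63.2 ± 0.147 CPM per kilobase of exon (mean ± SD, n = 2), where CPM are counts scaled to library size. mlt-8 followed at 47.6 ± 7.18 CPM per kilobase. Next came mlt-10 at 29.7 ± 1.70, mlt-9 at 27.5 ± 1.60 and mlt-11 at 26.3 ± 2.20 CPM per kilobase, and the libraries of neighbours in this trio overlapped, so that their order is not resolved. mlt-7 reached 16.2 ± 2.90 and lrp-1 12.6 ± 0.280 CPM per kilobase, and neither overlapped the other. fbn-1 lay at 8.78 ± 0.0351 and bli-5 at 0.940 ± 0.619 CPM per kilobase. With OP50 + LL12007 the order changed at one place, as mlt-11, at 50.1 ± 4.07 CPM per kilobase, stood above mlt-10, at 36.5 ± 0.898, and mlt-9, at 36.5 ± 1.41.

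Feeding OP50 + LL12007 was accompanied by higher expression of most of the 10 genes. By edgeR's quasi-likelihood test, with Benjamini-Hochberg adjustment over all genes tested, 6 of the 10 rose against OP50 and 0 fell, while 8.76% of all genes tested were called higher and 7.71% lower. The 6 were mlt-11, noah-1, noah-2, fbn-1, mlt-7 and mlt-9. The other 4 (mlt-8, mlt-10, lrp-1 and bli-5) also had both OP50 + LL12007 libraries above both OP50 libraries. This separation, seen for all 10 genes, was found upward in 34.6% and downward in 33.9% of all genes tested. At an unadjusted p under 0.05, 9 of the 10 were higher and 0 lower, against 18.8% and 18.1% of all genes. The median log2 fold change of the 10 genes was 0.47, against 0.02 over all genes. With OP50 + LL100933, 1 of the 10 genes rose (mlt-7) and 0 fell, where 4.38% of all genes were called higher and 2.24% lower. The median log2 fold change of the 10 was then 0.27, against 0.02 over all genes. Libraries lay wholly above OP50 for 5 of the 10 genes and wholly below for 2, against 29.2% and 29.9% of all genes. At an unadjusted p under 0.05, 4 were higher and 1 lower, against 15.6% and 15.8% of all genes. Both diets were compared with the same OP50 libraries.

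**Figure D1:**
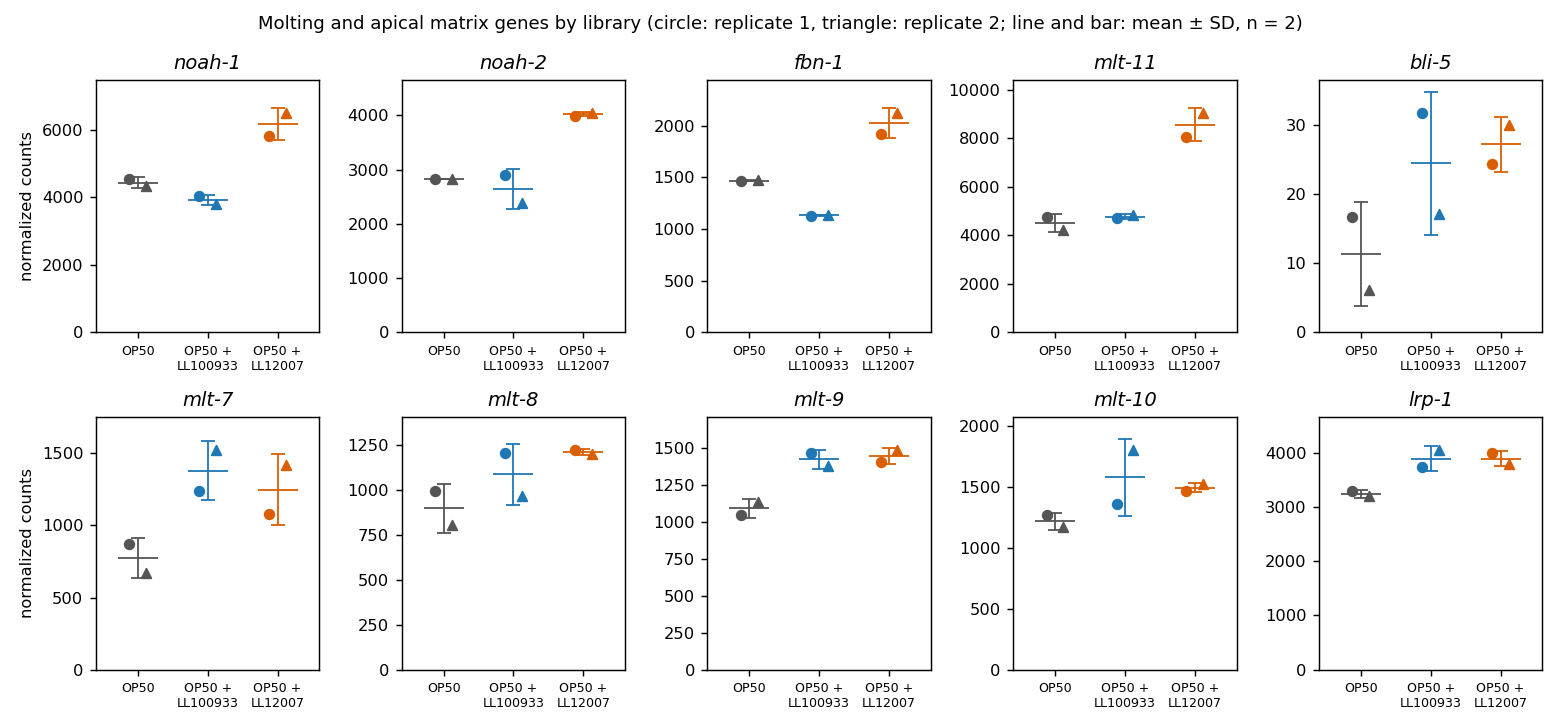
Normalized counts of each of the 10 genes on a linear axis from 0, for the 3 diets on the horizontal axis. Circles are replicate 1, triangles replicate 2, and lines with bars the mean ± SD (n = 2). For noah-1, noah-2, fbn-1 and mlt-11 both OP50 + LL12007 libraries lie above all 4 others, whereas mlt-7 and mlt-9 are higher than OP50 in both supplemented diets.

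The matrix structural genes noah-1, noah-2 and fbn-1 shared a pattern, with the highest levels in OP50 + LL12007. noah-1 and noah-2 encode zona pellucida domain proteins of the apical matrix that attach the epidermis to its overlying coat, and fbn-1 encodes a fibrillin-related protein of the same matrix. noah-1 lies on chromosome I from 5874416 to 5878958 on the minus strand of WBcel235 and its longest product has 1052 residues. Its normalized counts were 4546 and 4320 with OP50, 4033 and 3813 with OP50 + LL100933, and 5823 and 6500 with OP50 + LL12007. Thus both OP50 + LL12007 libraries were above OP50 and both OP50 + LL100933 libraries were below it. The log2 fold change against OP50 was 0.47 (SE 0.12, adjusted p = 0.0311) with OP50 + LL12007 and -0.18 (SE 0.12, adjusted p = 0.329) with OP50 + LL100933.

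noah-2, on chromosome IV from 14091254 to 14096626 on the plus strand, encodes a shorter protein of 741 residues. It had 2832 and 2823 normalized counts with OP50, 2900 and 2384 with OP50 + LL100933, and 3999 and 4051 with OP50 + LL12007. The OP50 + LL100933 libraries fell on either side of OP50, whereas the OP50 + LL12007 libraries were both well above. The log2 fold change with OP50 + LL12007 was 0.51 (SE 0.12, adjusted p = 0.0281), and that with OP50 + LL100933 was -0.10 (SE 0.12, adjusted p = 0.607).

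fbn-1 spans chromosome III from 7625386 to 7641078 on the plus strand, with 9 annotated transcripts and a longest product of 2781 residues. Its OP50 libraries were close to each other, at 1462 and 1471 normalized counts. The counts were 1125 and 1136 with OP50 + LL100933 and 1923 and 2125 with OP50 + LL12007, so the diets did not overlap at all. fbn-1 rose with OP50 + LL12007, with a log2 fold change of 0.46 (SE 0.10, adjusted p = 0.0247), and its log2 fold change with OP50 + LL100933 was -0.37 (SE 0.10, adjusted p = 0.0569). The end of fbn-1 overlaps the oppositely oriented upp-1 by 20 bases, and upp-1 had 1413 to 2021 counts.

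The protease inhibitor genes mlt-11 and bli-5 differed greatly in abundance. mlt-11 encodes a large secreted protein with many Kunitz protease inhibitor domains that is needed to complete molts. It lies on chromosome V from 20667205 to 20678537 on the plus strand, with 8 annotated transcripts and a longest product of 3129 residues. Its normalized counts were 4770 and 4238 with OP50, 4716 and 4838 with OP50 + LL100933, and 8076 and 9059 with OP50 + LL12007. The OP50 + LL100933 libraries overlapped OP50, and those of OP50 + LL12007 were far above both. mlt-11 had the lowest p of the 10 genes against OP50, with a 1.90-fold rise with OP50 + LL12007 (log2 fold change 0.93, SE 0.13, adjusted p = 0.0180, rank 31 of all genes tested). Its log2 fold change with OP50 + LL100933 was 0.08 (SE 0.13, adjusted p = 0.679).

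bli-5 encodes a small Kunitz-type protein of 202 residues whose loss causes blistering of the cuticle, and lies on chromosome III from 13427640 to 13429768 on the minus strand. It had 16.6 and 6.06 normalized counts with OP50, 31.7 and 17.1 with OP50 + LL100933, and 24.3 and 30.0 with OP50 + LL12007. Both supplemented diets lay above OP50, but by little in the case of OP50 + LL100933 replicate 2. The log2 fold changes, 1.08 (SE 0.53, adjusted p = 0.196) with OP50 + LL100933 and 1.21 (SE 0.53, adjusted p = 0.133) with OP50 + LL12007, did not pass the test. The OP50 libraries differed 2.74-fold, and with 1 library left out the log2 fold changes ranged from 0.55 (without OP50 + LL100933 replicate 1) to 2.003 (without OP50 replicate 1) and from 0.71 (without OP50 replicate 2) to 2.14 (without OP50 replicate 1), respectively. In the last of these fits bli-5 was called with OP50 + LL12007 (adjusted p = 0.0363). bli-5 also overlaps the oppositely oriented cope-1 (858 to 1249 counts) by 74 bases, and the strand setting of the counting is not given in the sources used here.

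mlt-7, the heme peroxidase gene whose product is thought to cross-link cuticle proteins together with the dual oxidase BLI-3, was the gene that rose in both diets. It lies on chromosome II from 4393007 to 4404850 on the plus strand and encodes 724 residues. The normalized counts were 869 and 673 with OP50, 1236 and 1522 with OP50 + LL100933, and 1076 and 1420 with OP50 + LL12007. All 4 supplemented libraries exceeded both OP50 libraries, and the supplemented diets overlapped each other. The log2 fold changes were 0.84 (SE 0.18, adjusted p = 0.0415) with OP50 + LL100933 and 0.69 (SE 0.18, adjusted p = 0.0369) with OP50 + LL12007. Both calls were close to the threshold. With OP50 + LL100933 the call held without OP50 replicate 1 (adjusted p = 0.00828) but was lost without any other single library (adjusted p = 0.0517 to 0.204). With OP50 + LL12007 it was lost without OP50 replicate 2 (adjusted p = 0.0858), without OP50 + LL100933 replicate 1 (adjusted p = 0.0501) and without either library of the diet itself (adjusted p = 0.0807 and 0.279). When edgeR was fitted on each pair of groups, mlt-7 was called in neither diet (adjusted p = 0.0683 and 0.0504).

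mlt-8, mlt-9 and mlt-10 encode proteins whose loss disrupts molting, and MLT-10 belongs to a nematode family with proline-rich repeats. mlt-9, on chromosome X from 15101786 to 15107797 on the minus strand, had 1045 and 1135 normalized counts with OP50, 1466 and 1375 with OP50 + LL100933, and 1404 and 1483 with OP50 + LL12007. The supplemented libraries were all above OP50 and overlapped each other. mlt-9 rose with OP50 + LL12007 (log2 fold change 0.41, SE 0.11, adjusted p = 0.0356), a call that was lost without OP50 replicate 1 (adjusted p = 0.0585). A log2 fold change of nearly the same size with OP50 + LL100933, 0.38 (SE 0.11), had an adjusted p of 0.0577 and was not called.

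mlt-10, on chromosome II from 546705 to 552032 on the plus strand, had 1267 and 1168 normalized counts with OP50, 1357 and 1804 with OP50 + LL100933, and 1469 and 1521 with OP50 + LL12007. OP50 + LL100933 replicate 2 held the highest value, and the libraries of that diet differed more than those of the others. The log2 fold changes were 0.38 (SE 0.14, adjusted p = 0.108) and 0.30 (SE 0.14, adjusted p = 0.154), respectively. With OP50 + LL100933 the value was 0.17 without replicate 2 of that diet and 0.57 without its replicate 1. mlt-8 lies nearby on the same chromosome, from 569210 to 572110 on the minus strand. It had 995 and 803 normalized counts with OP50, 1207 and 969 with OP50 + LL100933, and 1224 and 1203 with OP50 + LL12007. OP50 + LL100933 overlapped OP50, and the log2 fold change with OP50 + LL12007, 0.43 (SE 0.14, adjusted p = 0.0667), narrowly missed the threshold.

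lrp-1 encodes the worm counterpart of megalin, a very large endocytic receptor of 4753 residues on the apical surface of the epidermis that is needed for molting. It lies on chromosome I from 7614176 to 7634143 on the plus strand. Its normalized counts were 3296 and 3195 with OP50, 3733 and 4049 with OP50 + LL100933, and 3992 and 3790 with OP50 + LL12007. Both diets thus lay above OP50 by the same small amount, with log2 fold changes of 0.26 (SE 0.11, adjusted p = 0.141) and 0.26 (SE 0.11, adjusted p = 0.118), and neither was called.

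**Figure D2:**
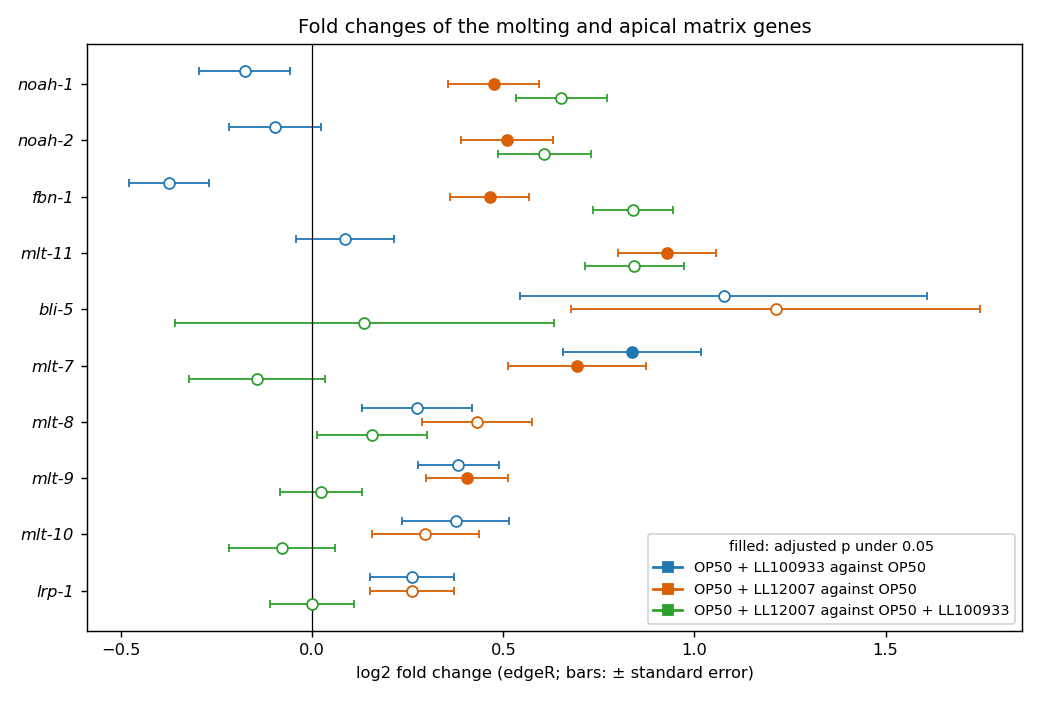
Log2 fold changes of the 10 genes (horizontal axis) with their standard errors from edgeR, for each supplemented diet against OP50 and for the supplemented diets against each other. Filled circles have an adjusted p under 0.05. mlt-11 has the largest called change, 0.93 with OP50 + LL12007, and noah-1, noah-2 and fbn-1 lie on opposite sides of 0 in the 2 diets.

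The comparison of the supplemented diets asked whether the strains differed from each other. For 4 of the 10 genes (mlt-11, fbn-1, noah-1 and noah-2) both OP50 + LL12007 libraries lay above both OP50 + LL100933 libraries, where 24.6% of all genes did so and 21.9% were separated the other way. The log2 differences, OP50 + LL12007 minus OP50 + LL100933, were 0.84 for mlt-11 (SE 0.13, adjusted p = 0.123), 0.84 for fbn-1 (SE 0.10, adjusted p = 0.0767), 0.65 for noah-1 (SE 0.12, adjusted p = 0.158) and 0.61 for noah-2 (SE 0.12, adjusted p = 0.189). In this fit 0 of the 10 genes and 0% of all genes passed the threshold. At an unadjusted p under 0.05, 4 of the 10 genes were higher with OP50 + LL12007 and 0 lower, against 5.26% and 5.01% of all genes. fbn-1 had the second-lowest p of all genes tested in this comparison (unadjusted p = 1.5e-05). Fitted on the 4 supplemented libraries alone, edgeR called all 4 genes, with adjusted p = 0.00378 for mlt-11, 0.00430 for fbn-1, 0.0103 for noah-1 and 0.0200 for noah-2. In that fit 1.61% of all genes were called higher. DESeq2 on the 6 libraries called the same 4 genes and 0.759% of all genes higher. The other 6 genes differed by less than their standard errors or only slightly more, from 0.16 (SE 0.14) for mlt-8 to -0.14 (SE 0.18) for mlt-7.

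When either OP50 + LL12007 library was left out, calls against OP50 were nearly all lost across the genome. Without replicate 1 or without replicate 2, 0.0972% and 0.0325% of all genes were called higher by edgeR, and 0 of the 10 genes were, with adjusted p of 0.0807 to 0.286 for the 6. Counts at an unadjusted p are not given for these fits, as the share over all genes was not taken. The log2 fold changes in those fits were 1.01 and 0.86 for mlt-11, 0.55 and 0.41 for noah-1, 0.52 and 0.52 for noah-2, 0.54 and 0.41 for fbn-1, 0.88 and 0.50 for mlt-7, and 0.44 and 0.39 for mlt-9. Leaving out any one of the other 4 libraries left 5 to 7 of the 10 genes called, with 719 to 2611 of all genes called higher.

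Related genes were grouped by role, and the counts of each list are to be read beside the shares over all genes. With OP50 + LL12007, 8.76% of all genes rose and 7.71% fell, and for OP50 + LL100933 these shares were 4.38% and 2.24%. Of 11 regulators of the molting cycle, 6 rose and 0 fell with OP50 + LL12007, with a median log2 fold change of 0.67, and with OP50 + LL100933 2 rose and 0 fell, with a median of 0.28. myrf-1, a membrane-bound transcription factor needed for larval progression, had 1054 and 761 normalized counts with OP50, 967 and 1249 with OP50 + LL100933, and 2003 and 2259 with OP50 + LL12007. Its log2 fold change with OP50 + LL12007 was 1.23 (SE 0.18, adjusted p = 0.0193). The period homolog lin-42 rose by 0.99 (SE 0.17, adjusted p = 0.0195), bed-3, a zinc finger gene required for molting, by 0.97 (adjusted p = 0.0198), and the Blimp1 homolog blmp-1 by 0.67 (adjusted p = 0.0193) on the log2 scale. nhr-23, an ROR-related receptor that drives each molt, had a log2 fold change of 0.17 (adjusted p = 0.250), with 1081 and 1123 normalized counts with OP50 and 1239 and 1240 with OP50 + LL12007. nhr-25, a receptor of the Ftz-F1 family, had a log2 fold change of 0.42 (adjusted p = 0.0544). The genes called with OP50 + LL100933 were nhr-41 and grh-1, which were named after their values were seen. Their log2 fold changes were 0.66 (adjusted p = 0.0431) and 0.59 (adjusted p = 0.0415). Both were also called with OP50 + LL12007, with log2 fold changes of 0.78 (adjusted p = 0.0218) and 0.57 (adjusted p = 0.0271).

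Of 13 genes of the apical precuticle matrix, 9 rose and 1 fell with OP50 + LL12007, and 1 rose and 1 fell with OP50 + LL100933. The median log2 fold changes were 0.59 and -0.01, respectively. The lipocalin gene lpr-3 had 2655 and 2443 normalized counts with OP50, 2505 and 2544 with OP50 + LL100933, and 3879 and 4518 with OP50 + LL12007. lpr-3 rose by 0.72 (SE 0.12, adjusted p = 0.0193), lpr-4 by 0.70 (adjusted p = 0.0193) and lpr-5 by 0.75 (adjusted p = 0.0193) on the log2 scale. let-653, which encodes a zona pellucida domain protein that shapes epithelial tubes, rose by 0.71 (SE 0.13, adjusted p = 0.0196). Against OP50 + LL100933 the log2 differences were 0.73 for lpr-3 (adjusted p = 0.123) and 0.79 for let-653 (adjusted p = 0.128). In that comparison 0 of the 13 and 0% of all genes passed the threshold. At an unadjusted p under 0.05, 8 of the 13 were higher and 0 lower, against 5.26% and 5.01% of all genes. lpr-7 and egg-6 were named after their values were seen. lpr-7 was the gene that rose with OP50 + LL100933, and it also rose with OP50 + LL12007. Its log2 fold changes were 0.57 (adjusted p = 0.0455) and 0.47 (adjusted p = 0.0472), respectively. egg-6, which is also needed for the eggshell, was the one that fell in both diets.

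Cuticlins, insoluble cuticle proteins that mostly carry a zona pellucida domain, included genes that rose in both diets. Of 33 tested of 35 listed, 5 rose and 1 fell with OP50 + LL100933, and 7 rose and 1 fell with OP50 + LL12007, with median log2 fold changes of 0.58 and 0.51. cut-2 had 9883 and 9559 normalized counts with OP50, 19495 and 17482 with OP50 + LL100933, and 17623 and 16774 with OP50 + LL12007. It rose 1.90-fold (SE of log2 0.14, adjusted p = 0.0195) and 1.77-fold (SE of log2 0.14, adjusted p = 0.0193), respectively. The log2 fold changes with OP50 + LL100933 and OP50 + LL12007 were 1.23 (adjusted p = 0.0137) and 0.85 (adjusted p = 0.0222) for cutl-23 and 0.96 (adjusted p = 0.0214) and 0.86 (adjusted p = 0.0196) for cutl-20. Those of cut-4 were 1.18 (adjusted p = 0.0325) and 1.19 (adjusted p = 0.0202). cutl-25, named after its values were seen, fell in both diets, by 1.11 and 0.95 on the log2 scale.

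Genes of proteolysis and cross-linking included calls in either direction. Among 7 proteases, nas-38, an astacin metalloprotease that acts around molting, rose from 293 and 126 normalized counts with OP50 to 701 and 773 with OP50 + LL100933 and to 800 and 990 with OP50 + LL12007. Its log2 fold changes were 1.80 (SE 0.36, adjusted p = 0.0468) and 2.08 (SE 0.36, adjusted p = 0.0246). cpz-1, a cathepsin Z-like cysteine protease, fell with OP50 + LL12007 by 0.79 on the log2 scale (adjusted p = 0.0281). The other 5 proteases were not called in either diet. Of 10 peroxidase and dual oxidase genes, 2 rose and 1 fell with OP50 + LL100933, and 3 rose and 1 fell with OP50 + LL12007. doxa-1 and tsp-15, which encode partners of the dual oxidase, had log2 fold changes of 0.99 (adjusted p = 0.0439) and 0.78 (adjusted p = 0.0510) with OP50 + LL100933 and 0.997 (adjusted p = 0.0281) and 0.69 (adjusted p = 0.0464) with OP50 + LL12007. The peroxidase gene skpo-2 rose in both diets, by 0.88 (adjusted p = 0.0136) and 0.65 (adjusted p = 0.0193), and skpo-1 fell in both, by 0.58 (adjusted p = 0.0436) and 0.87 (adjusted p = 0.0193) on the log2 scale.

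Of 9 genes of the endocytic machinery that serves molting, 0 were called with OP50 + LL100933, and 2 rose with OP50 + LL12007, the kinase gene nekl-3 by 0.78 (adjusted p = 0.0398) and the ankyrin repeat gene mlt-2 by 0.84 (adjusted p = 0.0458) on the log2 scale. Of 13 other molting genes, 6 rose and 0 fell with OP50 + LL12007. These included the patched-related genes ptr-4, by 0.71 (adjusted p = 0.0198), and ptr-18, by 0.56 (adjusted p = 0.0243), and also acn-1, which encodes an enzymatically inactive relative of angiotensin-converting enzyme, by 0.64 (adjusted p = 0.0218), and pan-1, by 0.67 (adjusted p = 0.0260). With OP50 + LL100933, 1 of the 13 rose, ptr-18, by 0.73 (adjusted p = 0.0229).

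**Figure D3:**
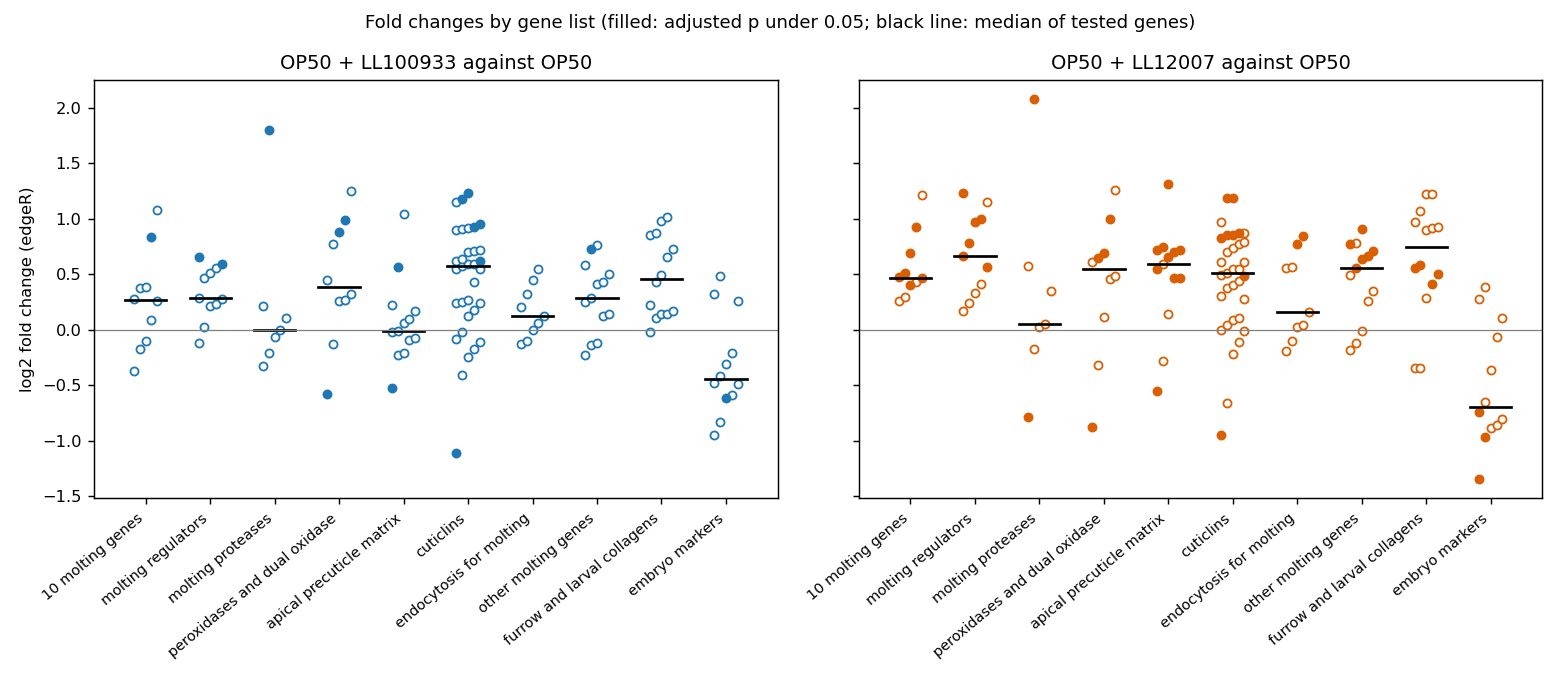
Log2 fold changes (vertical axis) of every tested gene in the 10 molting genes, 8 related lists and the embryo markers, with OP50 + LL100933 on the left and OP50 + LL12007 on the right. Filled points have an adjusted p under 0.05 and black lines are medians. The median of the precuticle genes is -0.01 on the left and 0.59 on the right, whereas that of the cuticlins is 0.58 and 0.51.

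As over all genes, calls in the related lists and tissue markers depended on the libraries kept. Of the 45 calls with OP50 + LL12007 that concern named genes outside the 10, all 45 were lost without replicate 1 or without replicate 2 of that diet, 15 without OP50 replicate 2, and 3 to 6 without each remaining library. Of 17 such calls with OP50 + LL100933, 17 were lost without replicate 2 of that diet, 15 without its replicate 1, 15 without OP50 + LL12007 replicate 1, 13 without OP50 + LL12007 replicate 2, 6 without OP50 replicate 2 and 2 without OP50 replicate 1. No direction turned in these fits, but for rol-1, which had no count in the OP50 libraries, a turn was not possible. The 45 also take in bli-6, col-62, rol-1 and col-49, which belong to the adult and last-molt list described below. Their counts were low, and part of that list passed the filter through the diet in which its genes were high. The losses of these calls are therefore not to be read like those of the other named genes. Over all genes, higher calls numbered 15 and 5 without replicate 1 or 2 of OP50 + LL12007, and, for OP50 + LL100933, 50 and 7 without replicate 1 or 2 of that diet.

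Collagens that mark the larval cuticle were examined because they are expressed in the same molting cycle. Of 14 furrow and larval collagens, 0 were called with OP50 + LL100933, and 4 rose with OP50 + LL12007, namely the furrow collagens dpy-2 (log2 fold change 0.56, adjusted p = 0.0244), dpy-7 (0.59, adjusted p = 0.0256), dpy-3 (0.50, adjusted p = 0.0340) and dpy-10 (0.41, adjusted p = 0.0442). dpy-7 had 2106 and 1847 normalized counts with OP50, 2580 and 2049 with OP50 + LL100933, and 2986 and 2955 with OP50 + LL12007. Several collagens outside these 4 had a larger ratio between the OP50 libraries than their fitted fold change in either diet. In OP50 replicate 1, dpy-5 stood at 10007 normalized counts and in replicate 2 at 2826, a ratio of 3.54, and dpy-13 had a ratio of 3.56. The ratios of dpy-4, dpy-8, dpy-9, rol-6 and sqt-1 were 2.67 to 3.35, while those of dpy-14 and dpy-17 were 0.469 and 0.470. For the 10 molting genes the same ratio lay between 0.921 (mlt-9) and 1.29 (mlt-7), except for bli-5 at 2.74. The part of this OP50 difference in the results for the 10 genes was measured only by leaving a library out. Log2 fold changes with OP50 + LL12007 are given without OP50 replicate 2 and without OP50 replicate 1, respectively. They were 0.85 and 1.015 for mlt-11, 0.45 and 0.51 for noah-1, and 0.52 and 0.51 for noah-2. For fbn-1 they were 0.48 and 0.46, for mlt-7 0.53 and 0.89, and for mlt-9 0.48 and 0.35. Among the genes not called in the fit of all libraries they were 0.30 and 0.59 for mlt-8. They were 0.25 and 0.35 for mlt-10, 0.25 and 0.28 for lrp-1, and 0.71 and 2.14 for bli-5.

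**Figure D4:**
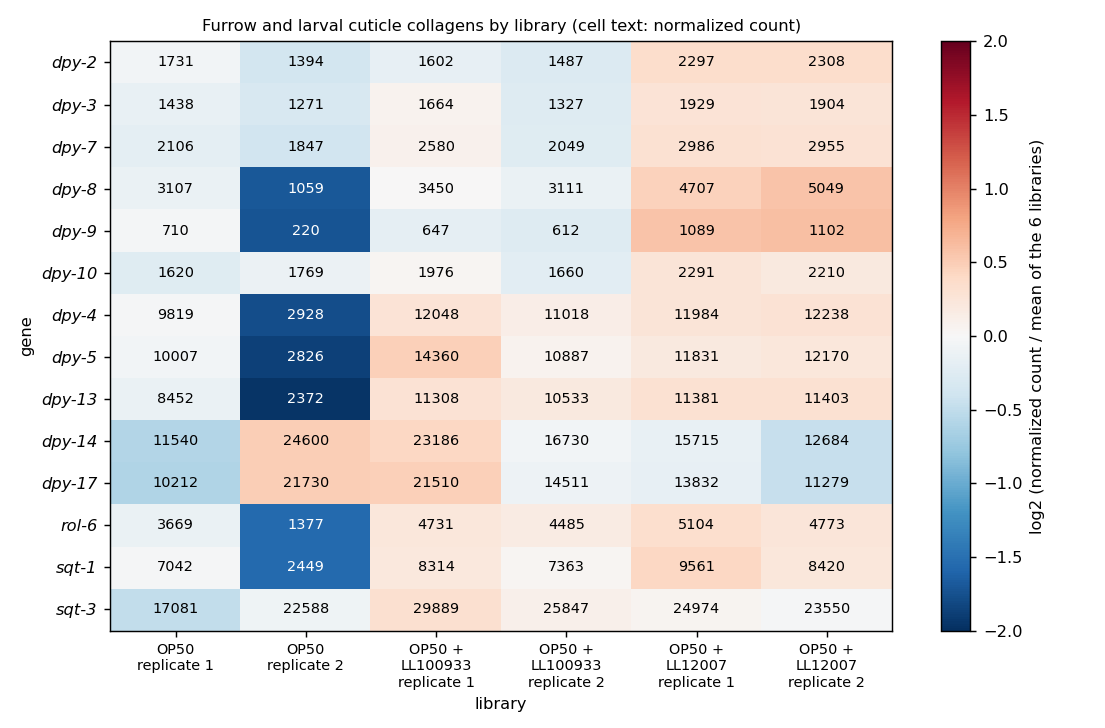
Normalized counts of 14 furrow and larval collagens (rows) in the 6 libraries (columns), printed in each cell and coloured by the log2 ratio to the mean of the 6 libraries. dpy-5 falls from 10007 in OP50 replicate 1 to 2826 in replicate 2, whereas dpy-14 rises from 11540 to 24600.

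Of 10 collagens of the adult and of the last molt, 6 passed the filter on low counts. Some of these passed through the diet in which they were high, so no count of calls is given for this list. col-7, col-63, bli-1 and bli-2 were left out by the filter, with 0 to 35 counts in any library. The adult collagen col-19 fell from 2932 and 2561 normalized counts with OP50 to 1518 and 999 with OP50 + LL12007, with a log2 fold change of -1.13 (adjusted p = 0.0418). With OP50 + LL100933 it had 1598 and 1000, with a log2 fold change of -1.08 (adjusted p = 0.0626). rol-1 was not counted in the OP50 libraries and reached 1.81 and 1.07 normalized counts with OP50 + LL100933, and 17.7 and 33.4 with OP50 + LL12007. Its OP50 + LL12007 mean was 9.24-fold above a floor set at 3 counts per OP50 library. rol-1 passed the filter only through OP50 + LL12007, so this fold is a description and no support for a rise. col-49 and bli-6 were also low, with 23.2 and 35.7 and with 25.4 and 34.6 normalized counts in OP50 + LL12007 and at most 4.99 in any OP50 library, and col-62 fell from 23.3 and 18.2 to 4.42 and 2.30. DESeq2 gave no adjusted p for these 4 genes of low count.

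Because adults can carry embryos, which build their own apical matrix, embryo markers were measured alongside. Of 15 embryo markers, 12 were tested. With OP50 + LL12007 0 rose and 3 fell, nhr-2 by 0.74 (adjusted p = 0.0237), ceh-51 by 1.35 (adjusted p = 0.0242) and pes-10 by 0.97 (adjusted p = 0.0430) on the log2 scale, where 7.71% of all genes were called lower, and with OP50 + LL100933 nhr-2 fell by 0.61 (adjusted p = 0.0469). The median log2 fold changes of the tested markers were -0.70 and -0.45, respectively. pha-4, hlh-1 and elt-1 had log2 fold changes of 0.38 (adjusted p = 0.0718), 0.28 (adjusted p = 0.200) and 0.11 (adjusted p = 0.620) with OP50 + LL12007. The summed level of the 15 markers was 276 and 349 CPM with OP50, 319 and 296 with OP50 + LL100933, and 301 and 292 with OP50 + LL12007. pha-4 and lin-26, which later tissues also express, made up much of this sum, with 1114 to 2043 normalized counts each. med-1 had no count in the OP50 and OP50 + LL100933 libraries, and hlh-27 had at most 1 count in any library. The germline genes pgl-1 and glh-1 fell with OP50 + LL12007, by 0.72 (adjusted p = 0.0198) and 0.65 (adjusted p = 0.0376), and pgl-1 fell by 0.52 (adjusted p = 0.0480) with OP50 + LL100933. Among other tissue markers myo-2 rose in both diets, by 0.89 (adjusted p = 0.0291) and 0.55 (adjusted p = 0.0474), and rab-3 rose by 0.83 (adjusted p = 0.0244) with OP50 + LL12007. unc-54, ges-1, vit-2 and snb-1 were not called in either diet. For comparison, the summed level of the 10 molting genes was 1205 and 1133 CPM with OP50, 1246 and 1251 with OP50 + LL100933, and 1657 and 1781 with OP50 + LL12007. The part of the germline and embryo differences in the levels of the 10 genes was not tested.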

How the data were processed

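RNA from whole worms was selected for poly(A), made into stranded libraries and sequenced as paired-end reads. Per the labels, the authors trimmed reads with Trim Galore 0.6.5, Trimmomatic 0.39 and cutadapt 2.7, aligned them to ce11 (WBcel235) with STAR 2.7.2b and deposited raw gene counts from featureCounts 1.6.4. The treatment of reads that map to several places and the strand setting are not stated in the labels or methods.

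Counts were analysed with edgeR 4.0.16 in R 4.3.3 (filterByExpr, TMM factors, robust quasi-likelihood fit of 6 libraries in 3 groups, 3 residual degrees of freedom), with Benjamini-Hochberg adjustment over 14899 genes and a threshold of 0.05. Depth was 14929196 to 21691687 counts per library, and intervals of counting error do not cover differences between cultures. Standard errors were derived from the log2 fold change and the F statistic. Levels compared between genes were CPM (counts scaled to effective library size) per kilobase of exon. Fold changes against a group at 0 used a floor of 3 counts per library. Coordinates and protein lengths came from the Ensembl annotation of WBcel235, the build of the files. The test was checked on simulated counts. The changes simulated were larger than those fitted for the called genes among the 10, so the check does not cover changes of their size. The 10 genes and the related lists were chosen with earlier results of these data known, so lists are described by counts and medians without a list test. Named genes were the 10 genes, up to 4 called genes per related list with the lowest adjusted p, the regulators nhr-23, nhr-25, lin-42 and blmp-1, and all tissue markers. Outside this rule, nhr-41, grh-1, lpr-7, egg-6 and cutl-25 were named after their values were seen. Some collagens and embryo markers were also named outside this rule. Alternatives were other scaling factors, DESeq2 1.42.0, fits on 2 groups, other filters on low counts, a replicate block, a fit without robust estimation and the omission of each library.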

Additional observations from a re-analysis of the deposited data

Results flagged for a closer look

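noah-1 and fbn-1 stood on opposite sides of OP50 in the supplemented diets. The share of all genes with this pattern was not taken, so it is not shown to be particular to these genes. For noah-1 both OP50 + LL12007 libraries lay above and both OP50 + LL100933 libraries below the OP50 libraries, and the log2 difference between these diets was 0.65 (unadjusted p = 0.000339, adjusted p = 0.158 by edgeR's quasi-likelihood test). For fbn-1 the log2 difference was 0.84 (unadjusted p = 1.5e-05, adjusted p = 0.0767). Over the alternatives the adjusted p of the difference ranged from 2.72e-05 to 1 for noah-1 and from 2.43e-07 to 1 for fbn-1. The direction was the same in all of the alternatives run for each gene. Both genes were flagged by the order of these same libraries, so the p-values and directions give no separate support.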

How the results depend on the processing

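Of the 10 genes, the number called higher with OP50 + LL12007 was 5 to 7 under the alternatives that kept every library and 0 to 7 when 1 library was left out. A diet left with 1 library was assumed to vary like the others. With OP50 + LL100933 the number called higher, 1 in the fit reported, was 2 with upper-quartile factors, with DESeq2 on 6 libraries and with at least 10 counts in every library, 3 without a filter on low counts, 0 when edgeR was fitted on that pair of groups, and 0 to 1 when 1 library was left out. Between the supplemented diets it was 0 in the fit reported, 4 with DESeq2 on 6 libraries or on the pair of groups, 4 with edgeR on the pair of groups, 4 without a filter, and 0 to 4 when 1 library was left out. Of all genes, 5.63% were called higher with OP50 + LL100933 with upper-quartile factors and 9.42% with DESeq2 on 6 libraries. The share was 6.23% with at least 10 counts in every library, 7.82% without a filter and 0.426% with edgeR on that pair. Between the supplemented diets it was 0.759% with DESeq2 on 6 libraries and 2.12% with DESeq2 on the pair. There it was 1.61% with edgeR on the pair and 1.57% without a filter. The median log2 difference of the 10 genes between these diets, 0.15, ranged from 0.10 to 0.49 when 1 library was left out. With at least 10 counts in every library bli-5 could not be tested, and DESeq2 gave it no adjusted p against OP50. Deviations of same-numbered libraries correlated at 0.199 between the supplemented diets but at -0.00158 and -0.0582 with OP50, so the numbers were not taken as pairs. With a replicate block 0 of the 10 genes were called with OP50 + LL100933, 6 with OP50 + LL12007, where mlt-8 was called (adjusted p = 0.0487) and mlt-7 was not (adjusted p = 0.0575), and 0 between the supplemented diets. Under the block, 1.82%, 6.56% and 0% of all genes were called higher in these 3 comparisons, respectively. Across all genes, the number called higher with OP50 + LL100933 was 652, and 63 to 1760 under the alternatives that kept every library. The number called lower was 334, and 5 to 725. Higher calls with OP50 + LL12007 numbered 1305 and ranged from 977 to 2425, and between the supplemented diets 0 and up to 354. With 1 library left out, higher and lower calls ranged from 7 to 1688 and 0 to 1038 with OP50 + LL100933, from 5 to 2611 and 0 to 1892 with OP50 + LL12007, and from 0 to 264 and 0 to 196 between the supplemented diets. When 1 library was left out, directions of small log2 differences turned, over -0.247 to 0.0479 for noah-2 with OP50 + LL100933, and between the supplemented diets over -0.362 to 0.044 for mlt-7, -0.0244 to 0.0703 for mlt-9, -0.27 to 0.14 for mlt-10, -0.23 to 0.66 for bli-5 and -0.0573 to 0.0584 for lrp-1. The lrp-1 difference, 0.000154, was -0.00626 with RLE factors, -0.00425 with upper-quartile factors, -0.00554 with library totals, -0.00617 with DESeq2 on 6 libraries, -0.0119 with DESeq2 on the pair, -0.00893 with edgeR on the pair, -0.00534 without a filter and -0.0226 with at least 10 counts in every library. The causes of these moves were not tested.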
